A study of Mus musculus with 7 samples.

Results

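The genes described here encode the machinery that brings newly made proteins into the endoplasmic reticulum (ER) and processes them on entry. They are the signal recognition particle (SRP) and its receptor, the Sec61 translocon with its partners, the translocon-associated protein (TRAP) complex, the oligosaccharyltransferase and the signal peptidase. They were chosen by name, and 32 genes were listed. Probe sets were taken where the platform annotation gives the gene as its only symbol, which held for 31 of the 32 genes and 77 probe sets, out of 18193 genes on the array with a probe set of their own. The exception was Sec61g, the small gamma subunit of the channel, whose probe set is annotated to several genes and is not used here. All 31 genes passed the filter on low signal, with 72 of their 77 probe sets.

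Both groups were cells of the mouse embryonic stem cell line D3. The wild type group had 2 libraries, and the knockout group had 5 libraries from cells in which Calr, the gene for the ER chaperone calreticulin, had been ablated. Each library came from total RNA of several pooled cultures and was hybridised to its own Affymetrix expression array, which the submitters treat as a separate biological sample. Whether the knockout cells were 1 clone or several is not in the labels, nor are passage or feeder conditions, and the p-values below rest on the spread among these libraries alone.

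As background, the signal recognition particle binds the signal peptide of a growing chain on the ribosome and delivers the ribosome to its receptor in the ER membrane. The chain then passes through the Sec61 channel, where signal peptidase removes the signal peptide and oligosaccharyltransferase attaches a preassembled glycan to asparagine residues. Calreticulin and its membrane-bound relative calnexin later recognise a trimmed form of that glycan and hold the glycoprotein for folding, so the genes described here act upstream of the protein that was removed.

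Calr itself was read first as a check on the labels. Signals at its brightest probe set were 12460 and 10839.5 in wild type libraries and 577 to 1064 in the knockout group, a difference of -3.68 on the log2 scale (limma adjusted p = 0.00595 over 27022 probe sets). The call was lost without wild type library 1 (adjusted p = 0.254) or wild type library 2 (adjusted p = 0.129), where limma had a single wild type library left that was assumed to vary like the others. Differences throughout are knockout minus wild type of log2(signal + 20.2), where the added constant shrinks the differences of dim probe sets. Knockout libraries 2 and 3 resembled each other (r = 0.985 over all probe sets tested) more than any other library (r = 0.843 to 0.902). For Lys, a bacterial control RNA added to the sample, their signals were 12785 and 9618, against 3029 to 3878 elsewhere. Comparing the 3' with the 5' Actb probe set gave log2 ratios of 0.79 and 0.89, against 1.46 to 2.08. Between the genotypes, 6 such control measures gave exact two-sided permutation p from 0.286 to 0.857. Results are therefore given for all 5 knockout libraries and for libraries 1, 4 and 5 alone.

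None of the genes of ER entry passed the test between the groups, and most of their membrane-bound members had their highest signals in knockout libraries 2 and 3. In those 2 libraries the 31 genes lay above the wild type mean by a median of 0.77 and 0.74 on the log2 scale. In knockout libraries 1, 4 and 5 the median was -0.073, -0.077 and -0.10, where the wild type libraries themselves stood at 0.031 and -0.031. Over all genes tested the same medians ran from -0.038 to 0.018 in the 5 knockout libraries. Knockout libraries 2 and 3 were the 2 highest of the 7 for 24 of 31 genes, against 24.6% of all genes tested. They were the 2 lowest for 3 genes (Srp9, Srp14 and Sec61b), against 26% of all genes. These libraries were picked out for their correlation over all probe sets tested, the members included, and for their control signals. The counts therefore describe 2 libraries and are no test of the knockout.

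**Figure D1:**
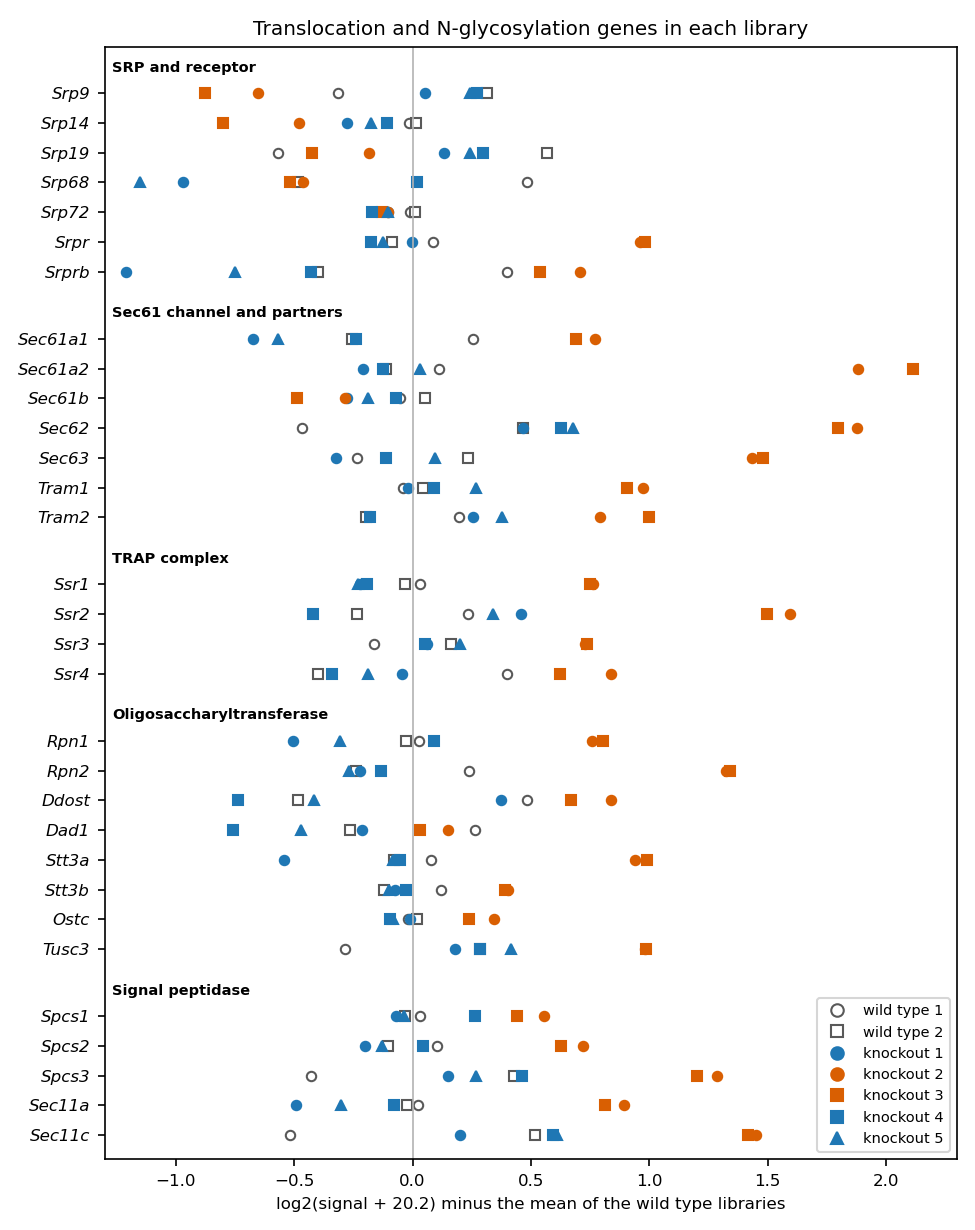
Each point is 1 library's log2(signal + 20.2) minus the mean of the 2 wild type libraries, for the brightest probe set of each of 31 genes grouped by complex. Knockout libraries 2 and 3 (orange) lie to the right of the other libraries for 24 genes and to the left for Srp9, Srp14 and Sec61b.

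With all 5 knockout libraries, 0 of 72 member probe sets passed a limma adjusted p under 0.05, where 0.0296% of all probe sets did. Among genes, each by its brightest probe set, the adjusted threshold was passed by 0 of 31, against 0.0229% of all genes. The lowest adjusted p of a member was 0.575. At an unadjusted limma p under 0.05 there were 4 member probe sets (5.56%), against 8.42% of all probe sets. They belonged to Sec62, Stt3a and Spcs1. By brightest probe set, 1 of 31 genes, Sec62, was higher at that level (background 4.38%), and 0 were lower (background 3.22%). A positive difference was found for 23 of 31 genes, with a median of 0.18, where 49.7% of all genes had one and their median was -0.0041. With knockout libraries 1, 4 and 5 alone, 11 of 31 differences were positive and the median was -0.10 (background 48.9% positive, median -0.0096). The positive median over the members thus turns negative without these 2 libraries. The standard errors of the 31 differences ran from 0.20 to 0.67, so differences of that size could not be resolved. Larger ones were not always resolved either. Sec11c differed by 0.85 with a standard error of 0.43 and did not pass (limma adjusted p = 0.575).

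**Figure D2:**
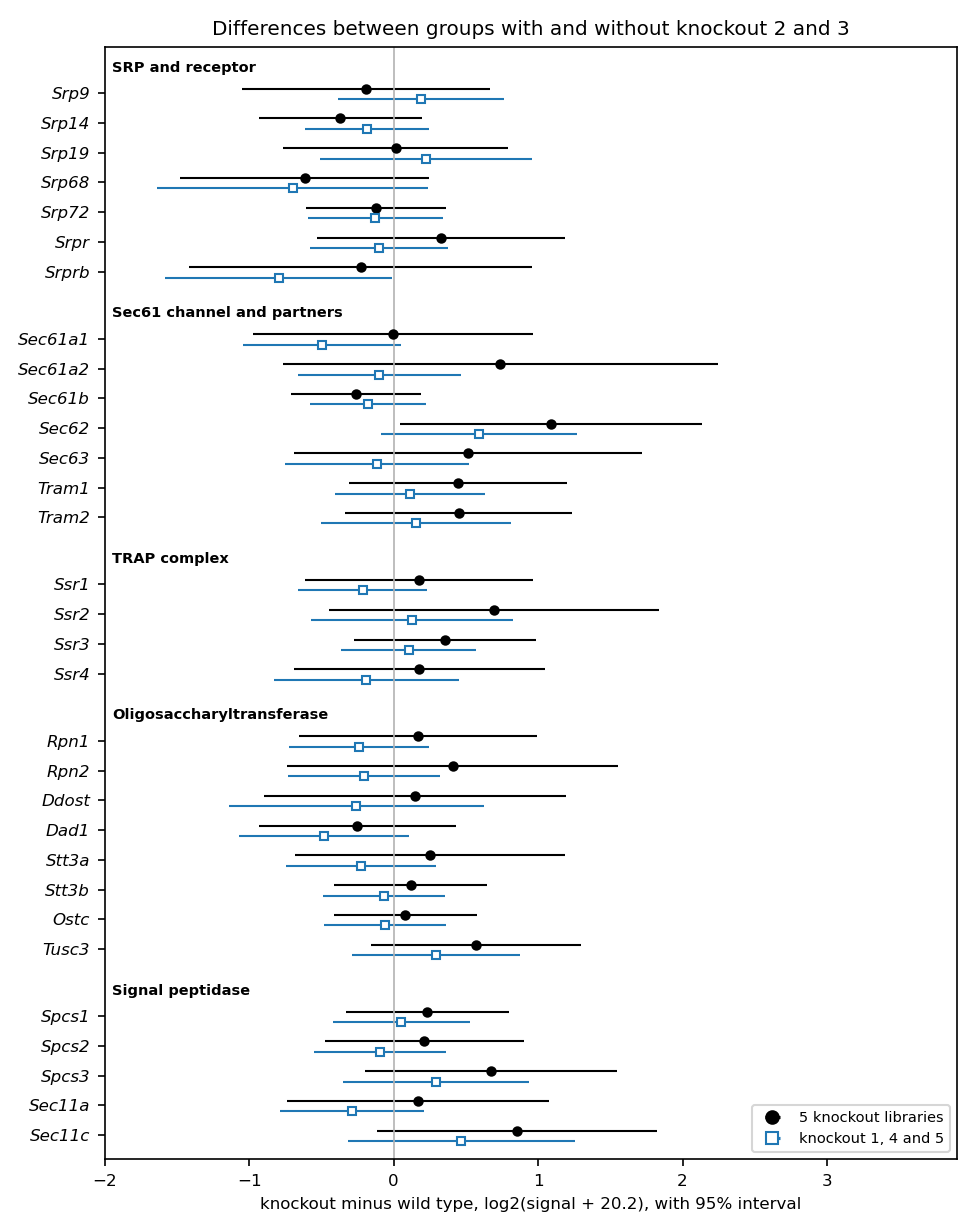
Knockout minus wild type on the log2(signal + 20.2) scale with its 95% interval from limma, for all 5 knockout libraries (black circles) and for libraries 1, 4 and 5 (open blue squares). For all 5 libraries only the interval of Sec62 excludes 0, and 14 of 31 differences have the opposite sign without libraries 2 and 3.

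The 5 knockout signals did not overlap the wild type pair for 3 of 31 genes, Srp14, Srp72 and Sec61b, all lower, against 7.44% of all genes tested. No gene was higher without overlap, where 6.41% of all genes were. Without knockout libraries 2 and 3, 6 genes were lower without overlap (Srp14, Srp72, Srprb, Sec61b, Ssr1 and Sec11a), against 10.8% of all genes, and 0 were higher, against 10.4%. By probe set, with all 5 knockout libraries, 6 of 72 were lower without overlap (background 5.85%) and 2 of 72 were higher (background 7.8%).

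Because most members were high in the same 2 libraries, their promoters were read from RefSeq (GRCm38.p6), from 250 bases before to 50 after the gene's start. A window was found for 23 of the 32 listed genes, 24 windows in all. Those of Srp14 (chr2:118479647-118479946, minus strand), Srp72 (chr5:76974451-76974750, plus strand) and Sec61b (chr4:47474411-47474710, plus strand) are shown because their groups did not overlap, and that of Sec62 (chr3:30792626-30792925, plus strand) because it had the largest difference. Rpn1 (chr6:88084223-88084522, plus strand) was high in knockout libraries 2 and 3 and was chosen after the motif search as an example with both boxes. Capitals mark a CCAAT box, the recognition sequence of the factor NF-Y, or a CCACG box, on either strand (ATTGG and CGTGG on the other).
Srp14: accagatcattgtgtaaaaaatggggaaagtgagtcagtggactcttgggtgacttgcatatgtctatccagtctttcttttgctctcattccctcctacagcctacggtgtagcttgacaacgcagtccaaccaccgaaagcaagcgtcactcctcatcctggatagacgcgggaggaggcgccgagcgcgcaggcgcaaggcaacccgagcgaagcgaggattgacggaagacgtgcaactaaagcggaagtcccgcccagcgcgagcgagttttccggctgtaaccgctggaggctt
Srp72: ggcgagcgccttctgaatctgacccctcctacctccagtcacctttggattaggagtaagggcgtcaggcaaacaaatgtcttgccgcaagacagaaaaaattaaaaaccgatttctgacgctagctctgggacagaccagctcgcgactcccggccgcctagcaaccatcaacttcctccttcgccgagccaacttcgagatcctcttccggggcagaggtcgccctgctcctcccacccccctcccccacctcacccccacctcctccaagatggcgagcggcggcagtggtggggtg
Sec61b: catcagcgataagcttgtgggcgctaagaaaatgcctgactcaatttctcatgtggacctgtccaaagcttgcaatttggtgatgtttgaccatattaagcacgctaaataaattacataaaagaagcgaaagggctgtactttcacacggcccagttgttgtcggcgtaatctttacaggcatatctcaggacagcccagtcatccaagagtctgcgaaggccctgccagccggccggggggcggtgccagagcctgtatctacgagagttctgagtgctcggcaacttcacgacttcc
Sec62: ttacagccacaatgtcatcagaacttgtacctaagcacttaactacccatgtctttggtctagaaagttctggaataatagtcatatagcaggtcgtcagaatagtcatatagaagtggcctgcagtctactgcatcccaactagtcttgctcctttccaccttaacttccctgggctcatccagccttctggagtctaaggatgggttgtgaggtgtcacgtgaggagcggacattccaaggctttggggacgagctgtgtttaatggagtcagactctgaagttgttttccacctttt
Rpn1: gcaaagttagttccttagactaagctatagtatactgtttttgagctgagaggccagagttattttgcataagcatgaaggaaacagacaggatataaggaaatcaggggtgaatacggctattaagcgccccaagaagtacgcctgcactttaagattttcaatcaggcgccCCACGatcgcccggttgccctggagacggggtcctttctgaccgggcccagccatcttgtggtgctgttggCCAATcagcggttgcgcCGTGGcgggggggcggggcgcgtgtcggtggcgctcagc
The windows of Srp14, Srp72, Sec61b and Sec62 held neither box, and that of Rpn1 held both.

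Both strands of every window were searched for these 2 boxes and for 3 elements known from ER stress genes. The CCACG box was in 16 of 24 member windows (66.7%) and in 32.8% of all 32851 windows of the same length. The latter were not matched to the members for signal or base composition, so the shares here are not shown to be particular to these genes. The CCAAT box was in 12 of 24 (50%) and in 37.4% of all. The ER stress response element (ERSE), CCAAT and CCACG with 9 bases between them, was in 0 of 24 member windows and 0.119% of all. The related ERSE-II, ATTGG and CCACG with 1 base between them, and the UPRE, TGACGTGG, which contains a CCACG box on its other strand, were also in 0 of 24, against 0.0365% and 0.676% of all. Of the 24 genes with their highest signals in knockout libraries 2 and 3, 17 had a window, and 14 of these held a CCACG box. Of the other 7 tested genes, 5 had a window and 2 of these, Srp9 and Dad1, held one. The CCAAT box was in 9 of the same 17 windows and in 2 of the other 5. These groups were formed by the signals themselves, and the split was not tested. A match to these letters is a description of the sequence and does not show that a factor binds there.

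The proteins of the signal recognition particle itself did not have their highest signals in knockout libraries 2 and 3, whereas both subunits of its receptor did. Srp14, which with Srp9 forms the part of the particle that slows elongation, had signals of 6435 and 6577 in the wild type pair and 5360.1, 4661, 3723, 6038 and 5755 in knockout libraries 1 to 5. Its knockout signals all lay below both wild type signals, lowest in libraries 2 and 3, and the difference was -0.37 (95% interval -0.93 to 0.19, limma adjusted p = 0.604). The other 3 Srp14 probe sets lay below the wild type pair in all 5 knockout libraries too, with differences of -0.30 to -0.60. Several of these probe sets carry the suffix that marks probes shared with related sequences, so other transcripts may add to them.

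Srp9 had signals of 2488 and 3865 in the wild type pair and 3219, 1966, 1681, 3754 and 3671 in knockout libraries 1 to 5. Libraries 2 and 3 were again the lowest of the 7, while libraries 1, 4 and 5 lay between the 2 wild type values, and the difference was -0.19 (95% interval -1.05 to 0.67, limma adjusted p = 0.856). Its sign turned to 0.19 without those 2 libraries. A second Srp9 probe set differed by -0.068, and there wild type library 1 (1271) lay below knockout library 2 (1379). Srp72, which binds the RNA of the particle together with Srp68, had signals of 3537 and 3596 in the wild type pair and 3322, 3319.6, 3263, 3162 and 3315 in knockout libraries 1 to 5. All 5 knockout signals were lower, but the gap was small, with a difference of -0.12 (95% interval -0.61 to 0.36, limma adjusted p = 0.836). Its second probe set, -0.23, overlapped between the groups.

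Srp68 had the largest difference of the group, -0.62 (95% interval -1.48 to 0.24, limma adjusted p = 0.587), with signals of 4779 and 2429.7 in the wild type pair and 1729, 2467, 2372, 3459 and 1526 in knockout libraries 1 to 5. The wild type pair was wide apart, and only wild type library 1 lay above all knockout libraries. Srp19, which helps assemble the particle, had the smallest, 0.013 (2574 and 5698 in the wild type pair and 4204, 3371, 2846, 4716 and 4539 in knockout libraries 1 to 5), with every knockout signal between the wild type values. The receptor alpha subunit gene Srpr stood at 3845 ± 324 (SD, n = 2) in wild type libraries, 3393 to 3829 in knockout libraries 1, 4 and 5, and 7488 and 7590.4 in libraries 2 and 3. Its difference was 0.33 (95% interval -0.53 to 1.18, limma adjusted p = 0.751). Srprb, the membrane-anchored beta subunit, stood at 831 ± 326, at 334 to 588 and at 1319 and 1170.5. Without libraries 2 and 3 it differed by -0.80 (limma adjusted p = 0.82), the only member with an unadjusted p under 0.05 in that fit, against 5.72% of all genes. Its other 2 probe sets differed there by -0.016 and -0.82. Over the particle and receptor together the median was -0.18 and -0.43 in knockout libraries 2 and 3, against -0.10, -0.11 and -0.12 in knockout libraries 1, 4 and 5. For the 5 particle proteins alone it was -0.46 and -0.52 in libraries 2 and 3.

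**Figure D3:**
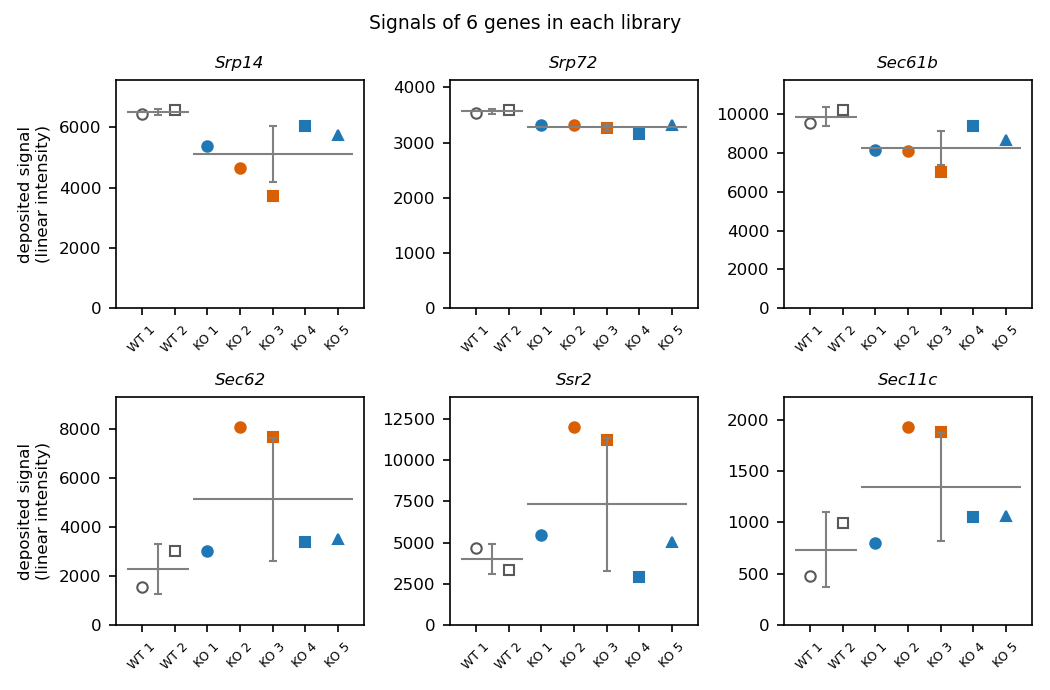
Deposited signals (linear intensity, axes from 0) of 6 genes in each library, with the mean and SD of each group as a horizontal line and bar. Srp14, Srp72 and Sec61b are lower in all 5 knockout libraries, and Sec62, Ssr2 and Sec11c are highest in knockout libraries 2 and 3.

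In the channel group 6 of 7 genes had their 2 highest signals in knockout libraries 2 and 3, and Sec61b had its 2 lowest there. Sec62, a membrane protein that with Sec63 helps chains enter the channel and that also serves as a receptor in the turnover of ER membrane, had signals of 1579 and 3034 in the wild type pair and 3033, 8094, 7672, 3391 and 3512 in knockout libraries 1 to 5. Only wild type library 1 lay clearly below the rest, knockout library 1 stood just under wild type library 2, and libraries 2 and 3 were far above the others, so the groups overlapped. The difference was 1.09 (95% interval 0.046 to 2.13, limma adjusted p = 0.575), with an unadjusted p of 0.0424 by limma, and it was 0.59 without libraries 2 and 3 (adjusted p = 0.82). All 4 tested Sec62 probe sets were higher, by 0.37 to 1.52.

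Sec63, a J-domain protein that recruits the chaperone BiP to the channel, stood at 577 ± 137 (SD, n = 2) in wild type libraries, 452 to 609 in knockout libraries 1, 4 and 5, and 1574 and 1624 in libraries 2 and 3. Its difference was 0.51 (95% interval -0.69 to 1.72, limma adjusted p = 0.723), and -0.11 without those 2 libraries. Sec61a1, the main gene for the pore-forming subunit, had signals of 8039 and 5648 in the wild type pair and 4217, 11515, 10898, 5703 and 4533 in knockout libraries 1 to 5. The 2 high libraries were offset by lower ones, and the difference was -0.0040 (95% interval -0.97 to 0.97, limma adjusted p = 0.998). Its other 5 probe sets had positive differences of 0.12 to 1.07, which also lay in libraries 2 and 3. Without them the 6 probe sets differed by -0.49 to -0.076.

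By brightest probe set, Sec61a2, the second gene for that subunit, stood further above the wild type mean in libraries 2 and 3 than any other member. Its signals were 1093 and 934 in the wild type pair and 872, 3778, 4442, 925 and 1034 in knockout libraries 1 to 5. Libraries 2 and 3 stood 1.88 and 2.11 above the wild type mean on the log2 scale, and the other 3 knockout libraries were within -0.21 to 0.032 of it. The difference was 0.74 (95% interval -0.76 to 2.24, limma adjusted p = 0.684). Sec61b, a small tail-anchored subunit of the channel, ran the other way, with signals of 9543 and 10243 in the wild type pair and 8155, 8105, 7050, 9416 and 8683 in knockout libraries 1 to 5. All 5 knockout signals were below the wild type pair, library 3 lowest, and library 2 was close to library 1. The difference was -0.26 (95% interval -0.71 to 0.19, limma adjusted p = 0.639), or -0.18 without libraries 2 and 3. It has 1 probe set of its own.

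Tram1 and Tram2 encode membrane proteins that sit beside the channel. Tram1 had signals of 2074 and 2199.8 in the wild type pair and 2106, 4214, 4019, 2275 and 2576 in knockout libraries 1 to 5, a difference of 0.44 (95% interval -0.31 to 1.20, limma adjusted p = 0.635). For Tram2 they were 432 and 324 in the wild type pair and 452, 663, 768, 328 and 493 in knockout libraries 1 to 5, a difference of 0.45 (95% interval -0.33 to 1.23, limma adjusted p = 0.641). Both were highest in libraries 2 and 3. Tram1 also stood above both wild type signals in libraries 4 and 5, and Tram2 in libraries 1 and 5. Without libraries 2 and 3 the differences were 0.11 and 0.15. The second Tram1 probe set was not high in libraries 2 and 3 (521 and 582, against 657 and 499 in wild type libraries), was highest in library 5 (1092), and differed by 0.022. The median of the channel group was 0.974 and 0.998 in knockout libraries 2 and 3, against -0.21, -0.11 and 0.093 in knockout libraries 1, 4 and 5.

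All 4 genes of the TRAP complex, which contacts the channel and helps some chains to enter, had a positive difference, and each had its 2 highest signals in knockout libraries 2 and 3. Ssr2, the beta subunit, differed most, with signals of 4667 and 3359.6 in the wild type pair and 5448, 11988, 11223, 2949.7 and 5021 in knockout libraries 1 to 5 and a difference of 0.69 (95% interval -0.45 to 1.84, limma adjusted p = 0.629). Knockout library 4 lay below both wild type libraries, so the groups overlapped. Ssr1, the alpha subunit, differed least, with signals of 4879 and 4661 in the wild type pair and 4088, 8109.6, 8042, 4168 and 4063 in knockout libraries 1 to 5 and a difference of 0.17 (95% interval -0.62 to 0.96, limma adjusted p = 0.857). Without libraries 2 and 3, Ssr1 was lower in all 3 remaining knockout libraries (-0.21, adjusted p = 0.853). Ssr3, the gamma subunit, and Ssr4, the delta subunit, differed by 0.36 and 0.18, or 0.10 and -0.19 without libraries 2 and 3. The complex median was 0.80 and 0.74 in knockout libraries 2 and 3, against 0.0082, -0.27 and 0.0072 in knockout libraries 1, 4 and 5.

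Of the 8 oligosaccharyltransferase genes, 7 had a positive difference with all libraries and 1, Tusc3, without knockout libraries 2 and 3. Tusc3, an oxidoreductase subunit of the enzyme form that glycosylates after entry, differed most, with signals of 1715 and 2557 in the wild type pair and 2377, 4160.1, 4165, 2558 and 2799.9 in knockout libraries 1 to 5. Wild type library 1 was the lowest, libraries 2 and 3 were the highest, and the difference was 0.57 (95% interval -0.16 to 1.30, limma adjusted p = 0.579). Ostc, a subunit that ties the other enzyme form to the channel, differed least, with signals of 6274 and 6457 in the wild type pair and 6326, 8085, 7510.4, 5965 and 6006 in knockout libraries 1 to 5 and a difference of 0.079 (95% interval -0.42 to 0.57, limma adjusted p = 0.9).

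The ribophorin gene Rpn1 stood at 11229.5 ± 303 (SD, n = 2) in wild type libraries, 7912 to 11945 in knockout libraries 1, 4 and 5, and 18985 and 19599 in libraries 2 and 3. All 5 tested Rpn1 probe sets had positive differences, 0.17 to 0.28, and negative ones without libraries 2 and 3, -0.36 to -0.22. Most of them, the brightest included, carry the suffix for probes shared with related sequences, as does the brightest Stt3a probe set. For Rpn2, the other ribophorin, the corresponding signals were 3807 ± 888, 3115 to 3427, 9442 and 9534. Ddost, a non-catalytic core subunit, stood at 5524 and 2810 in wild type libraries, a spread that covered libraries 1 and 5. Dad1, a small core subunit first known from its loss causing cell death, was the exception, with signals of 6360.3 and 4398 in the wild type pair and 4566, 5877, 5401, 3119.8 and 3805 in knockout libraries 1 to 5. Its libraries 2 and 3 lay between the wild type values and its difference was -0.25 (95% interval -0.93 to 0.43, limma adjusted p = 0.759). The median over the 8 genes was 0.80 and 0.74 in knockout libraries 2 and 3, against -0.14, -0.072 and -0.18 in knockout libraries 1, 4 and 5.

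The 5 signal peptidase genes all had positive differences, and for all 5 the 2 highest signals were in knockout libraries 2 and 3. Sec11c, which encodes one of the alternative catalytic subunits, differed most, with signals of 477 and 997 in the wild type pair and 797, 1927, 1879.7, 1052 and 1066 in knockout libraries 1 to 5 and a difference of 0.85 (95% interval -0.11 to 1.82, limma adjusted p = 0.575). Wild type library 1 was the lowest and wild type library 2 overlapped knockout library 1. Sec11a, the other catalytic subunit, differed least, with signals of 4689 and 4543 in the wild type pair and 3280.3, 8598, 8133, 4376 and 3736 in knockout libraries 1 to 5 and a difference of 0.17 (95% interval -0.74 to 1.07, limma adjusted p = 0.883). Without libraries 2 and 3, Sec11a was lower in the remaining 3 knockout libraries (-0.29, adjusted p = 0.834) and Sec11c stood at 0.47. Spcs1, Spcs2 and Spcs3, the accessory subunits, differed by 0.23, 0.21 and 0.67, or 0.054, -0.094 and 0.29 without those libraries. The complex median was 0.89 and 0.81 in knockout libraries 2 and 3, against -0.068, 0.26 and -0.034 in knockout libraries 1, 4 and 5.

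Paralogous subunits were compared within each library, where array scaling largely cancels. The constant added to the signals keeps it from cancelling fully, most of all for dim probe sets. The within-library difference of log2 signals is a relative measure and does not say which paralogue is more abundant. Groups were compared with an exact two-sided permutation test over the 21 ways to choose 2 of 7 libraries, which cannot give a p below 0.0476. For Sec61a1 minus Sec61a2 the values were 2.86 and 2.57 in wild type and 2.25, 1.60, 1.29, 2.60 and 2.11 in knockout libraries 1 to 5. Libraries 2 and 3 were the lowest, and the groups differed by -0.74, exact p = 0.143, adjusted 0.286 over 4 pairs. By brightest probe set, Sec61a2 stood further above the wild type mean in libraries 2 and 3 than Sec61a1. A dim Sec61a1 probe set (143 and 14.9 in wild type) stood 3.08 and 3.10 above that mean there. The order of the 2 genes thus depends on the probe set. For Stt3a minus Stt3b, the catalytic subunits of the 2 enzyme forms, they were -0.43 and -0.34 in wild type and -0.86, 0.15, 0.21, -0.41 and -0.37 in knockout libraries 1 to 5. Libraries 2 and 3 were the highest here, and the groups overlapped (0.13, exact p = 0.81, adjusted 0.952 over 4 pairs). The Stt3a signals were 6069 and 5453 in the wild type pair and 3945, 11059, 11456, 5551 and 5431 in knockout libraries 1 to 5, and those of Stt3b were 8209 and 6925 in the wild type pair and 7165, 9965, 9904, 7399.8 and 7031 in knockout libraries 1 to 5.

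For Sec11a minus Sec11c the values were 3.24 and 2.16 in wild type and 2.01, 2.15, 2.10, 2.04 and 1.79 in knockout libraries 1 to 5, lower in all 5 knockout libraries (-0.69, exact p = 0.0476, adjusted 0.19 over 4 pairs). Wild type library 1 decided the size of that difference, which was -0.15 without it. Knockout libraries 2 and 3 did not stand apart in this pair. For Tram1 minus Tram2 the groups differed by -0.0060, exact p = 0.952, adjusted 0.952 over 4 pairs. Without knockout libraries 2 and 3 the 4 pair differences, in the order given, were -0.39, -0.16, -0.76 and -0.040, where no exact p can be below 0.1.

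**Figure D4:**
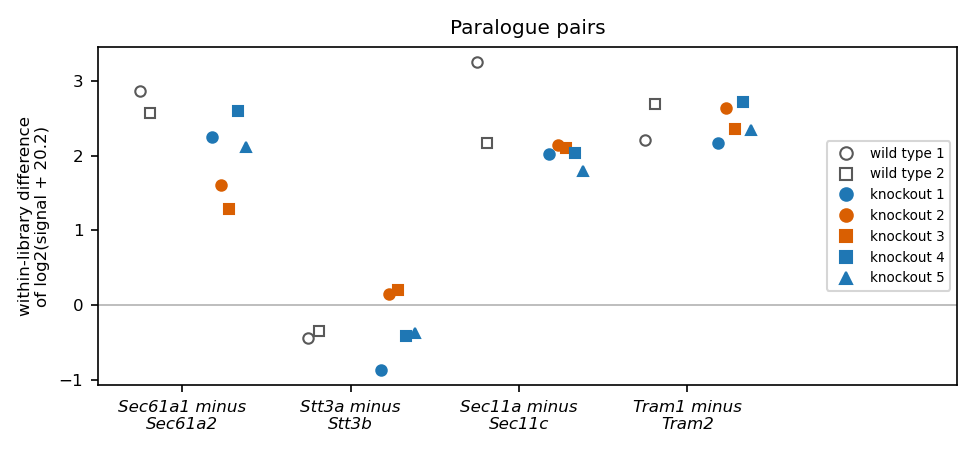
Within-library differences of log2(signal + 20.2) between 4 pairs of paralogous genes, 1 point per library. Sec11a minus Sec11c is lower in all 5 knockout libraries than in both wild type libraries, and in the other 3 pairs the groups overlap.

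Further genes of the pathway were grouped by function. No gene of these 4 lists passed the test over all probe sets, and the counts below are descriptions beside the background of 49.7% positive differences. Among 14 other subunits and partners of the same complexes, 12 were tested and 10 of 12 differences were positive (median 0.44, or -0.043 without knockout libraries 2 and 3), and the library medians were 1.16 and 1.07 in knockout libraries 2 and 3, against 0.066, -0.15 and 0.20 in knockout libraries 1, 4 and 5. Ost4, a very small oligosaccharyltransferase subunit, was lower, with signals of 6649 and 5552 in the wild type pair and 5216, 2148, 1985, 3148 and 5432 in knockout libraries 1 to 5 (-0.88, limma adjusted p = 0.575, or -0.44 without libraries 2 and 3). All its knockout signals were below the wild type pair, with libraries 2 and 3 lowest. The other negative difference was that of Srp54b, a dim probe set for the particle's signal-binding subunit (-0.38). Besides Ost4, lower without overlap, Tmem258 and Mlec were higher without overlap, 2 of 12 (background 6.41%) against 1 lower (background 7.44%). Ccdc47, a component of the translocon for multi-spanning proteins, differed by 0.81 and was highest in libraries 2 and 3 (6944 and 7445, against 1741 and 3699.9 in wild type libraries).

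The glycan that oligosaccharyltransferase transfers is built on the lipid dolichol. Of 26 genes of that synthesis, 25 were tested and 18 of 25 differences were positive (median 0.37, or -0.14 without knockout libraries 2 and 3), and the library medians were 1.19 and 1.16 in knockout libraries 2 and 3, against -0.14, 0.041 and -0.20 in knockout libraries 1, 4 and 5. Alg6 and Alg13, a glucosyltransferase and a subunit of an early sugar transferase, were higher at an unadjusted limma p under 0.05 (1.47 and 1.26, limma adjusted p = 0.575 for both), or by 0.69 and 1.19 without libraries 2 and 3, and their groups did not overlap. Among all genes tested, 4.38% were higher at that unadjusted level and 6.41% were higher without overlap, against these 2 of 25. Alg13 had signals of 124 and 370 in the wild type pair and 393, 598, 588, 732 and 487 in knockout libraries 1 to 5, with its highest value in knockout library 4. The cytosolic sugar enzyme gene Pmm1, which prepares mannose for the pathway, had its 2 lowest signals in libraries 2 and 3 (2200.2 and 2039.5, against 6366 and 3794 in wild type libraries), a difference of -0.74. Nus1, a subunit of the enzyme that makes the dolichol precursor, differed by 0.90.

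Among the 8 lumenal partners that pull and fold the entering chain, 8 of 8 differences were positive (median 0.67, or 0.036 without knockout libraries 2 and 3), and the library medians were 1.48 and 1.42 in knockout libraries 2 and 3, against 0.0033, 0.28 and -0.045 in knockout libraries 1, 4 and 5. Dnajc3, a co-chaperone of BiP, was higher at an unadjusted p under 0.05 (by 1.398, limma adjusted p = 0.575, or 0.98 without libraries 2 and 3), with signals of 546 and 1319 in the wild type pair and 1404, 3330.4, 3730.5, 1772 and 1959 in knockout libraries 1 to 5. All 5 knockout signals were above both wild type signals, as they were for Dnajb11, another co-chaperone of BiP (0.62). That made 1 of 8 at the unadjusted level and 2 of 8 without overlap, beside the same backgrounds of 4.38% and 6.41%. Hspa5, which encodes BiP, and Dnajc10, a lumenal disulfide reductase, differed by 0.37 and 0.48. The genes of tail anchor insertion and of the ER membrane complex serve other routes into the same membrane. Of 17 listed genes, 16 were tested and 8 of 16 differences were positive (median 0.0014, or -0.12 without knockout libraries 2 and 3), and the library medians were 0.24 and 0.088 in knockout libraries 2 and 3, against -0.091, -0.12 and -0.14 in knockout libraries 1, 4 and 5. Emc8 and Get3 of that list differed by -0.47 and -0.11.

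**Figure D5:**
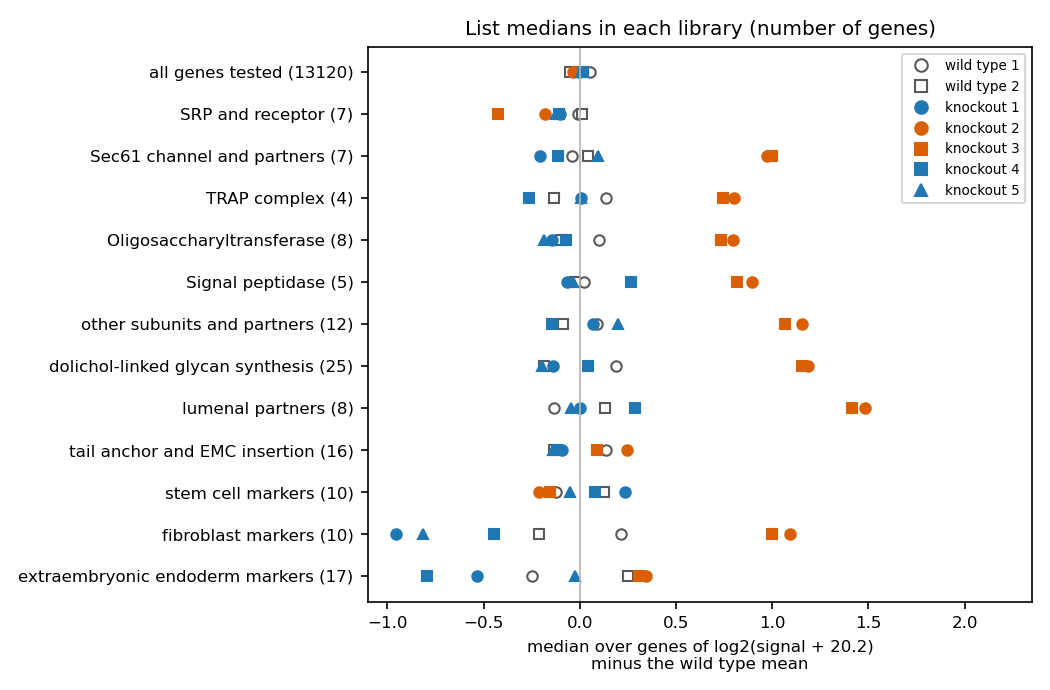
Median over the tested genes of each list (number in brackets) of log2(signal + 20.2) minus the wild type mean, 1 point per library. Knockout libraries 2 and 3 (orange) stand between 0.74 and 1.48 for the 4 membrane complexes, the other subunits, dolichol-linked glycan synthesis and lumenal partners, and near all other libraries for all genes tested.

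Markers of cell identity were measured beside these genes, since in a bulk sample fewer cells of a type and less RNA per cell cannot be told apart. All 10 of 10 stem cell markers passed the filter, with summed signals of 85618 to 99947 in wild type libraries, 87782 to 112938 in knockout libraries 1, 4 and 5, and 80194 and 85262 in knockout libraries 2 and 3. Pou5f1, the defining pluripotency factor gene, had signals of 11726 and 10184 in the wild type pair and 11549, 4891, 4687, 9114 and 8770.3 in knockout libraries 1 to 5, so its 2 lowest were in libraries 2 and 3. Both of these libraries lay below both wild type signals for 5 of 10 stem cell markers (background 33.8%) and above both for 1, Tdgf1, at 14287 and 15929 against 10711 and 10997 (background 31.8%). Klf4 there stood 0.73 and 0.88 above the wild type mean, within a wide wild type range. Fibroblasts often serve as feeders for stem cells, and of 12 of their markers 10 passed, with summed signals of 4405 to 5454 in wild type libraries, 1684 to 3079.6 in knockout libraries 1, 4 and 5, and 7263 and 6991 in knockout libraries 2 and 3. Col1a2 stood at 1519 and 1443 and Dcn at 552 and 555 in libraries 2 and 3. In the other 5 libraries Dcn was at 13.4 to 55.6. Lum and Twist1 were below the filter. Libraries 2 and 3 lay above both wild type signals for 8 of the 10 markers. They lay below both for Acta2, the brightest of the list, at 2474 and 2344 against 3802 and 3068, and between them for Thy1. Acta2 was lower still in knockout libraries 1, 4 and 5 (986, 1892.5 and 895). It was the 1 of 10 lower without overlap in all 5 knockout libraries (background 7.44%), and 0 were higher (background 6.41%). Of 20 markers of primitive, visceral and parietal endoderm, 17 passed, with summed signals of 16893 to 22459 in wild type libraries, 12997 to 16688 in knockout libraries 1, 4 and 5, and 27085 and 27465 in knockout libraries 2 and 3, and Afp, Ttr and Apoa1 were below the filter. The endoderm markers were split: libraries 2 and 3 lay above both wild type signals for 9 of 17, among them the bright matrix genes Lama1, Lamb1, Lamc1 and Col4a1, and below both for 7, among them Gata4, Sox17, Sox7, Foxa2 and Dab2. The median difference over the 17 was -0.32, with 4 positive. With all 5 knockout libraries, 4 of 17 were lower without overlap, Sox17 and Sox7 among them (background 7.44%), and 0 were higher (background 6.41%). The part of the cells these markers stand for in the values of the ER entry genes was not tested.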

How the data were processed

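RNA of 2 wild type and 5 Calr knockout libraries was profiled, with groups and numbers from the sample titles. Deposited intensities are linear MAS5 signals of each probe set, according to the submitters' processing notes, which name no version here. With 2% of probe sets trimmed at each end, the mean signal averaged over the arrays was 500.0. The arrays were taken as already scaled, and no further normalization was applied. Array medians ran from 92.6 to 124.9. Tests used log2(signal + 20.2), with the added constant at the 20th percentile of the signals. Of 45101 probe sets, 64 controls were set aside and 27022 with a mean above the 40th percentile were fitted with limma 3.58.1 in R 4.3.3 (lmFit, eBayes with a trend, two-sided, Benjamini-Hochberg over all of them). The fit was tested on simulated data. Each gene's values are those of the brightest probe set that carries only its symbol (13120 genes tested). Probe sets of several genes were left unnamed. Unadjusted p and overlap counts are set beside the same share over all genes. Promoters are RefSeq sequences of GRCm38.p6.

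The members, lists, tests and alternatives were chosen with earlier results of these data known. Values in every library are given for members without overlap, for the members with the largest and smallest difference in each complex, and for paralogues. From each further list, called members or else the 2 with the highest mean signal are named. The other named genes of these lists and the named markers were chosen after their values were seen. Alternatives were quantile normalization, median centring, other pseudocounts and filters, no trend, array weights, the mean over probe sets, the replicate number as a block, leaving out each library, and knockout libraries 2 and 3 left out or as a batch term. Figures were drawn with matplotlib 3.10.9. The number of arrays limits the precision.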

Additional observations from a re-analysis of the deposited data

Results flagged for a closer look

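The highest and lowest of the 5 knockout values were compared with the rest of their group by Dixon's ratio, the gap to the nearest value over the whole range, in 47 sets of values, and 3 passed the critical value of 0.71. Chance alone passes about 1 in 20 such sets. The median over the SRP and receptor genes was -0.43 relative to the wild type mean in knockout library 3, below the -0.18 of library 2 and the -0.12 to -0.10 of the other knockout libraries. That list mixes particle genes with receptor genes that were high in libraries 2 and 3. For the 5 particle proteins alone the medians were close, -0.46 in library 2 and -0.52 in library 3. Knockout library 4 had a high 3'/5' log2 ratio for the Lys control, at 1.19 against 0.27 to 0.52 in the other knockout libraries. Its Gapdh 3'/5' log2 ratio was high too, at 1.32 against -0.31 to 0.080.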

How the results depend on the processing

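No member probe set passed the adjusted threshold under any of the 19 alternatives, with a lowest adjusted p over member genes of 0.316. The median member difference was 0.18 with all libraries, -0.10 without knockout libraries 2 and 3 or with them as a batch term, and 0.062 to 0.32 without single libraries. The batch term gives the same differences as leaving these 2 libraries out by construction, so it is no separate check of their sign or size. Positive differences numbered 23 of 31, and 11 without the 2 libraries or with the batch term. Signs turned there for Srp9 (0.19), Srpr (-0.10), Sec61a2 (-0.10), Sec63 (-0.11), Ssr1 (-0.21), Ssr4 (-0.19), Rpn1 (-0.24), Rpn2 (-0.21), Ddost (-0.26), Stt3a (-0.23), Stt3b (-0.067), Ostc (-0.062), Spcs2 (-0.094) and Sec11a (-0.29). Other turns were Sec61a1 with quantile normalization (0.17), Srp19 (-0.11) and Ostc (-0.039) with centred medians, and, with array weights, Srp9 (0.0086), Ssr1 (-0.027), Ssr4 (-0.0021), Rpn1 (-0.062), Ddost (-0.067), Sec11a (-0.075). With the mean over probe sets they were Srprb (0.12) and Sec61a1 (0.49). Leaving out single libraries turned Srp9 (-0.51 to 0.12), Srp19 (-0.56 to 0.58), Srprb (-0.63 to 0.17), Sec61a1 (-0.26 to 0.25), Ssr4 (-0.22 to 0.58), Ddost (-0.34 to 0.63), Dad1 (-0.52 to 0.013), Stt3b (-0.0038 to 0.24), Sec11a (-0.014 to 0.33). Members at an unadjusted p under 0.05 numbered 1, but 0 with centred medians or array weights, 3 with the batch term and 0 to 3 without single libraries.

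Probe sets called over the array numbered 8, and 5 without a filter, 4 with the 60th percentile, 5 without knockout libraries 2 and 3, 2 genes with the mean over probe sets, and 0 to 7 without single libraries. Leaving out either wild type library ended the call of Calr (differences -3.78 to -3.52 over the 7 libraries, highest adjusted p = 0.254). The Sec11a minus Sec11c difference was no longer under an unadjusted p of 0.05 with a pseudocount of 64 (-0.65). It was -0.76 without knockout libraries 2 and 3 and -1.23 to -0.15 without single libraries, where so few splits exist that no p under 0.05 is possible. Stt3a minus Stt3b turned to -0.16 without knockout libraries 2 and 3. Tram1 minus Tram2, near 0, turned with a pseudocount of 64 (0.023) and over single libraries (-0.25 to 0.23). Without knockout libraries 2 and 3 the control differences turned to 0.045 (Gapdh ratio), -0.013 (Lys signal) and -0.099 (Dap signal), and without single libraries they ran from -0.64 to 0.17 for the Gapdh ratio and -0.013 to 0.18 for the Dap signal. The replicate numbers 1 and 2 are shared by the groups, and deviations from the group mean correlated at 0.11 and -0.0098 between libraries of the same number. With 2 wild type libraries these deviations mirror each other, so the correlations cannot decide whether the numbers pair the groups. With the replicate number as a block 15 probe sets were called, 0 of them members, and Srp19 (-0.025) and Sec61a1 (0.049) changed sign. The cause of these shifts was not tested.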

Other observations

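Of the 72 tested member probe sets, 2 had every knockout signal above both wild type signals, against 7.8% of all probe sets, and both were dim second probe sets of genes whose brightest probe set overlapped. A second Stt3a probe set had signals of 73.5 and 110.1 in wild type and 119, 965, 1157, 191 and 229 in knockout libraries 1 to 5, a difference of 1.80 (limma adjusted p = 0.575), while the brightest differed by 0.25. Without knockout libraries 2 and 3 it stood at 0.81. A Spcs1 probe set had signals of 37.3 and 62.1 in wild type and 80.5, 145, 148, 73.0 and 94.9 in knockout libraries 1 to 5, a difference of 0.86 (limma adjusted p = 0.575), against 0.23 for the brightest.

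Of 21 members with several tested probe sets, the others all had the sign of the brightest for 19. The exceptions were Sec61a1, where the other 5 were positive, and Srprb, where 1 of 3 was.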
